A study of Mus musculus with 4 samples.

Results

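Connecting tubule nuclei were examined in single-nucleus RNA-seq of mouse kidney. Of 39654 deposited barcodes, 750 (1.89%) met the rule: 173 and 170 in the 2 losartan libraries, and 219 and 188 in the 2 untreated libraries. The rule asked for at most 15000 UMIs (unique molecular identifiers, each standing for 1 captured transcript) and at most 10% mitochondrial UMIs. It also asked for a UMI of Slc8a1, a UMI of Calb1, Trpv5 or Egfem1, and a sum of at least 4 UMIs over these 4 genes. Barcodes with more than 1 UMI of Slc12a3 or of Aqp2, more than 1 UMI over Col1a2, Pdgfrb and Flt1, or more than 4 UMIs over Slc5a12, Slc13a3, Slc7a13 and Slc22a6 were left out. All kidneys came from C57BL/6 mice at post natal week 22 and were flash frozen before nuclei were isolated and loaded on a 10x Chromium chip. The groups were mice treated with losartan, a blocker of the type 1 angiotensin II receptor, and untreated mice. Dose, route, duration and sex were not given in the sources used here. No label says that the 2 libraries of a group came from separate animals, so the p-values measure the spread between libraries, which may be technical.

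The connecting tubule joins the distal convoluted tubule to the collecting duct. Its cells take up calcium from the urine through the apical channel Trpv5, carry it across the cell bound to calbindin (Calb1), and release it to the blood through the sodium-calcium exchanger Slc8a1 and plasma membrane calcium pumps. The segment also belongs to the aldosterone-sensitive distal nephron, in which the epithelial sodium channel (Scnn1a, Scnn1b, Scnn1g) reabsorbs sodium and the mineralocorticoid receptor (Nr3c2) is protected from glucocorticoids by Hsd11b2. It is a main site of tissue kallikrein (Klk1) synthesis in the kidney.

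The gated nuclei held 669395 and 648769 UMIs in the losartan libraries and 856088 and 834804 UMIs in the untreated libraries. Their median depth was 3451 and 3413.5 UMIs in the losartan libraries, against 3391 and 3664 UMIs in the untreated libraries. No gated barcode was shared between libraries. Over all barcodes the libraries held 42290414 to 59078762 UMIs.

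The nuclei were selected on their own counts of the 13 rule genes, whose values are given as a description only. A Calb1 UMI was present in 63.0% and 62.9% of the losartan nuclei and in 61.2% and 73.4% of the untreated nuclei. A Trpv5 UMI was present in 41.0% and 38.2% of the losartan nuclei and in 34.2% and 26.6% of the untreated nuclei. Egfem1, which codes for an EGF-like and EMI domain protein, had a UMI in 56.6% and 49.4% of the losartan nuclei, against 55.7% and 46.3% of the untreated nuclei. All of Calb1, Trpv5 and Egfem1 were found together in 9.83% and 11.2% of the losartan nuclei and 11.0% and 12.2% of the untreated nuclei, so most members entered with 1 or 2 of them beside Slc8a1. The median sum over the 4 markers was 24 and 25 UMIs in losartan nuclei and 17 and 11.5 UMIs in untreated nuclei. Slc8a1 was not particular to the gate. It measured 6615 and 9492 CPM (the gene's share of the class's UMIs, scaled to a fixed total) in losartan and 10341 and 13655 CPM in untreated gated nuclei, and 10219 to 13945 CPM over the 4 libraries in nuclei gated as distal convoluted tubule (at least 4 Slc12a3 UMIs; 1676 nuclei).

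The label was checked with the channel subunits Scnn1b and Scnn1g, which the rule did not use. A UMI of either was found in 83.2% and 78.2% of the losartan nuclei and in 63.9% and 48.4% of the untreated nuclei. In proximal tubule nuclei, which should lack both genes, the share was 4.66% and 4.39% in the losartan libraries and 4.68% and 4.39% in the untreated libraries, at median depths of 4623.5 to 6095 UMIs. With every nucleus thinned to 2000 UMIs, which left out 9 nuclei of untreated library 1, the gated shares were 74.6% and 67.1% in losartan and 55.2% and 41.0% in untreated nuclei. The order of the libraries was thus the same at equal depth, with untreated library 2 lowest. Distal convoluted tubule nuclei showed 27.0% and 20.2% in losartan and 22.5% and 29.1% in untreated libraries. Principal cell nuclei (at least 4 Aqp2 UMIs; 454 nuclei), where the channel is also known to be made, showed 70.5% and 56.7% in losartan and 95.8% and 63.2% in untreated libraries. The principal cell gate set no ceiling on the rule's 4 connecting tubule markers, so nuclei with these markers and Aqp2 could enter it. Those 4 markers summed to 2159 and 3596 CPM in losartan and 12508 and 5936 CPM in untreated principal cell nuclei. In connecting tubule nuclei they summed to 8585 and 11838 CPM in losartan and 13228 and 16072 CPM in untreated libraries. Tfap2b, another listed marker outside the rule, did not set the connecting tubule gate apart. It had a UMI in 60.7% and 57.1% of losartan and 53.9% and 39.4% of untreated gated nuclei. In distal convoluted tubule nuclei the shares were 59.4% and 59.1% in losartan and 62.5% and 64.1% in untreated libraries. The 8 listed markers outside the rule summed to more in the gate than in distal convoluted tubule nuclei of each library. Against principal cell nuclei this failed in untreated library 1 (2605 against 2864 CPM).

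The gate was not pure. At least 3 UMIs over 1 of 10 marker lists of other cell types (intercalated cell, podocyte, endothelium, fibroblast, mural or renin cell, macrophage or dendritic cell, lymphocyte, thin limb, urothelium, adipocyte) were found in 44 and 28 losartan nuclei (25.4% and 16.5%), against 59 and 99 untreated nuclei (26.9% and 52.7%). Macrophage and dendritic markers alone reached this level in 8.67% and 5.88% of losartan nuclei and in 11.9% and 27.1% of untreated nuclei. Thin limb markers did so in 1.16% and 1.18% of losartan nuclei and in 4.11% and 16.0% of untreated nuclei. Untreated library 2 therefore stood apart. In the nuclei that carried such UMIs, Scnn1b or Scnn1g was found in 59.1% and 39.3% in losartan and 28.8% and 26.3% in untreated libraries. In the other 520 nuclei (129 and 142 losartan, 160 and 89 untreated), the shares were 91.5% and 85.9% in losartan and 76.9% and 73.0% in untreated libraries. The 520 nuclei thus carried the channel subunits more often. Counts of calls for the main comparisons, and values of some genes, are also given for them alone, a choice made after seeing the data. Where a gene has no such value below, its result is for all gated nuclei only. Where the 520 nuclei are compared with distal convoluted tubule or principal cell nuclei, nuclei of those classes with such UMIs were left out too. The 520 nuclei were not cleared of thick ascending limb transcripts, which are not among the 10 lists. At least 5 UMIs of Slc12a1 and Umod were found in 16.3% and 19.0% of the losartan and 26.3% and 14.6% of the untreated nuclei of the 520, against 27.2% and 29.4% of losartan and 27.7% and 27.0% of untreated distal convoluted tubule nuclei and 11.9% and 16.2% of losartan and 15.6% and 5.93% of untreated proximal tubule nuclei. The 6 thick limb markers summed to 1471 and 2294 CPM in losartan and 2272 and 1939 CPM in untreated gated nuclei. Proximal tubule nuclei held less in each library, at 1234 and 1513 CPM in losartan and 1424 and 877 CPM in untreated libraries. The distal convoluted tubule and principal cell gates, unlike the connecting tubule gate, allowed at most 1 UMI of Slc12a1, which is among these markers. Thick limb values of distal convoluted tubule and principal cell nuclei were thus held down by their gates. They cannot be compared with those of connecting tubule nuclei. With fewer than 2 UMIs of intercalated and thick limb markers, 51 and 39 losartan nuclei and 33 and 60 untreated nuclei were left. For the remaining 230 nuclei the data go against the label in part, and the rule rather than the cell type describes them.

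**Figure D1:**
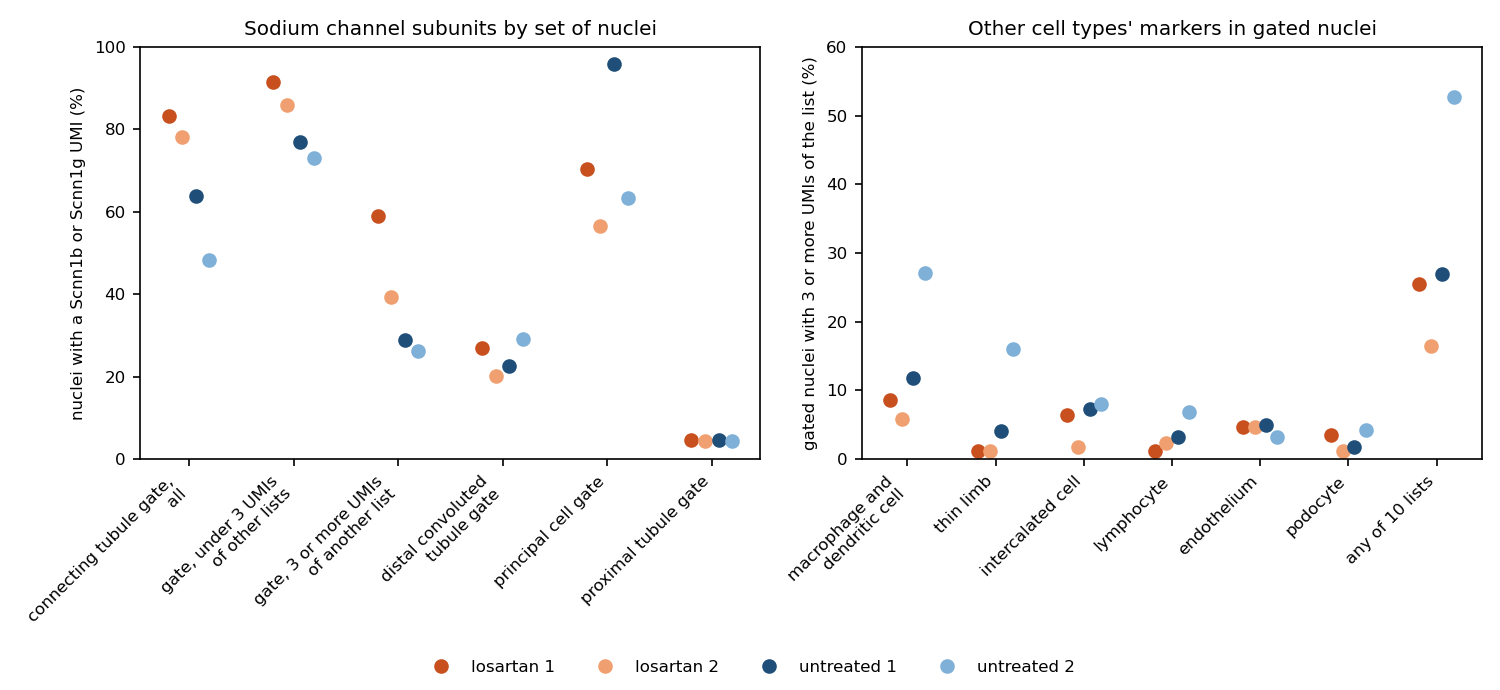
Left, percent of nuclei with at least 1 UMI of Scnn1b or Scnn1g in each of the 4 libraries, for the gated connecting tubule nuclei, those low and high in markers of other cell types, and 3 other gates. Right, percent of gated nuclei with at least 3 UMIs of each other-type marker list, highest in untreated library 2 (52.7% for any of the 10 lists).

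The plots of detection show both sides of that check. On the left the proximal tubule nuclei lie under 5% in every library, far below the gated nuclei. On the right the macrophage and thin limb lists separate untreated library 2 from the other 3 libraries. The edges of the gate are given as a description. At the lowest allowed marker sum of 4 UMIs, a UMI of Scnn1b or Scnn1g was found in 22.2% and 23.1% of losartan and 16.1% and 19.2% of untreated nuclei, and just outside, at a sum of 3 UMIs, in 14.3% and 15.4% of losartan and 10.4% and 18.5% of untreated nuclei. Gated nuclei with at least 10 Slc8a1 UMIs had shares of 87.5% or more in the losartan libraries and of 75% or more in the untreated libraries.

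Connecting tubule nuclei made up 1.83% (95% exact binomial interval 1.57% to 2.13%) and 1.73% (1.48% to 2.0%) of the nuclei of the losartan libraries, against 2.40% (2.09% to 2.73%) and 1.97% (1.70% to 2.27%) in the untreated libraries. The intervals cover counting error only. The means were 1.78% ± 0.0766 in losartan and 2.18% ± 0.302 in untreated libraries (SD, n = 2 each), and these shares did not overlap between groups. They did overlap in 3 other counts. With nuclei thinned to 2000 UMIs the shares were 2.11% and 1.95% in losartan and 2.40% and 2.04% in untreated libraries. Under a stricter gate they were 0.742% and 0.619% in losartan and 0.887% and 0.514% in untreated libraries. The 520 nuclei gave 1.37% and 1.44% in losartan and 1.75% and 0.933% in untreated libraries, with a log2 change of the other sign (0.07). The difference did not pass edgeR's quasi-likelihood test (log2 change -0.30, SE 0.17, adjusted p = 0.237 over 7 cell classes). The exact two-sided permutation test gave p = 0.333, the smallest that 2 against 2 libraries allow. The proximal tubule gate held 46.6% and 36.7% of the losartan nuclei and 25% and 18.4% of the untreated nuclei. Taken among the nuclei outside that gate, the connecting tubule share was 3.44% and 2.73% in losartan and 3.20% and 2.41% in untreated libraries, which overlap.

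Against their neighbour upstream, the distal convoluted tubule, connecting tubule nuclei had more RNA for the sodium channel subunits, Hsd11b2, Klk1 and Gata2, and less RNA for magnesium transport, the WNK kinases and Egf. Of 10985 genes tested with edgeR within the 4 libraries, 1224 were higher (11.1%) and 816 lower (7.43%) in connecting tubule nuclei, 18.6% in all. Without untreated library 2 the 2040 calls became 1337. The classes were gated on counts from the same nuclei, and the 13 genes of the rule were given no test. With the 520 nuclei low in other markers, and the other classes filtered alike, 793 of 9341 genes were higher (8.49%) and 621 lower (6.65%). Of these calls 1174 were shared.

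Scnn1b (the beta subunit; chromosome 7, 121865038 to 121918514, GRCm38) measured 589 and 575 CPM in losartan and 430 and 357 CPM in untreated connecting tubule nuclei, against 97.1 and 67.4 CPM in losartan and 78.5 and 88.5 CPM in untreated distal convoluted tubule nuclei. Every connecting tubule value lay above every distal convoluted tubule value, with a log2 difference of 2.42 (SE 0.20, adjusted p = 1.28e-07). Scnn1g, the gamma subunit, differed by 3.15 (SE 0.22, adjusted p = 9.98e-09), with 264 to 387 CPM in connecting tubule and 20.6 to 46.0 CPM in distal convoluted tubule nuclei. The alpha subunit Scnn1a did not pass, at -0.11, so the 3 subunits did not give the same result. Hsd11b2 measured 140 to 267 CPM in connecting tubule nuclei, against 18.3 to 27.7 CPM in distal convoluted tubule nuclei (log2 difference 3.16, SE 0.17, adjusted p = 6.85e-10). Nr3c2 did not pass in all gated nuclei (0.45, adjusted p = 0.055) and passed in the 520 low in other markers (0.77). Klk1, the kallikrein that releases kinins, measured 1313 and 1003 CPM in losartan and 502 and 622 CPM in untreated connecting tubule nuclei, against 435 and 403 CPM in losartan and 236 and 339 CPM in untreated distal convoluted tubule nuclei (1.11, SE 0.14, adjusted p = 1.35e-05). Klk1 also had a UMI in 25.2% to 50.3% of proximal tubule nuclei, against 58.9% to 78.6% of connecting tubule nuclei, and its level carries that background. Over the sodium and aldosterone list, 7 of 23 genes were higher and 7 lower, beside 11.1% and 7.43% of all genes. The list had a median log2 difference of -0.08 beside -0.003 over all genes. The higher genes besides those named were the kinase Sgk1, the ubiquitin ligase Nedd4l and the transcription factor Zbtb16. The lower genes included Wnk1, Wnk4, Klhl3, Stk39, Usp2 and the sodium pump subunit Atp1b1.

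Wnk1 and Klhl3 control the sodium-chloride cotransporter of the distal convoluted tubule. Wnk1 measured 1572 and 1312 CPM in losartan and 1263 and 1409 CPM in untreated connecting tubule nuclei, against 6283 and 6771 CPM in losartan and 4437 and 5048 CPM in untreated distal convoluted tubule nuclei (log2 difference -2.12, SE 0.20, adjusted p = 6.57e-07). Klhl3 differed by -2.57 (SE 0.17, adjusted p = 4.55e-09). Both stood between the 2 neighbours, since principal cell nuclei had less of each (Wnk1 293 to 796 CPM, Klhl3 60.7 to 146 CPM). Against principal cells the log2 difference was 1.31 for Wnk1 (SE 0.21, adjusted p = 0.000364) and 1.39 for Klhl3 (SE 0.21, adjusted p = 0.000164).

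Magnesium genes included several that were lower than in the distal convoluted tubule. Trpm6, the apical magnesium channel of the distal convoluted tubule, measured 115 and 109 CPM in losartan and 136 and 174 CPM in untreated connecting tubule nuclei, against 1691 and 1980 CPM in losartan and 1356 and 1393 CPM in untreated distal convoluted tubule nuclei. The log2 difference was -3.69 (SE 0.18, adjusted p = 1.54e-10), and no values overlapped. Egf, whose product stimulates Trpm6, measured 716 and 872 CPM in losartan and 528 and 385 CPM in untreated connecting tubule nuclei, against 4464 and 3804 CPM in losartan and 1899 and 1875 CPM in untreated distal convoluted tubule nuclei (-2.34, SE 0.15, adjusted p = 3.17e-09). Of 12 magnesium genes tested, 6 were lower (Trpm6, Trpm7, Cnnm2, Fxyd2, Kcnj10 and Egf) and 1 was higher, the EGF receptor Egfr (0.62). Over all genes, 7.43% were lower and 11.1% higher. Against principal cells, 5 of the 12 magnesium genes were higher and 1 was lower, beside 8.7% and 6.52% of all genes. Trpm6 was then higher by 1.12 (SE 0.24, adjusted p = 0.00294) and Egf by 2.34 (SE 0.18, adjusted p = 1.71e-07).

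Calcium genes outside the rule divided by neighbour. Against distal convoluted tubule nuclei, 2 of 16 were higher and 2 lower, beside 11.1% and 7.43% of all genes. S100g, the small calbindin-D9k, measured 260 and 291 CPM in losartan and 253 and 387 CPM in untreated connecting tubule nuclei, against 190 and 128 CPM in losartan and 77.9 and 157 CPM in untreated distal convoluted tubule nuclei (1.02, SE 0.20, adjusted p = 0.00133). Atp2b2, a plasma membrane calcium pump, was higher by 1.86 (SE 0.22, adjusted p = 7.16e-06), while the pump genes Atp2b1 and Atp2b4 did not pass (Atp2b4 -0.37). The vitamin D receptor Vdr was lower by 0.58 (adjusted p = 0.0457), a call lost in the 520 nuclei low in other markers (adjusted p = 0.312). Against principal cells 6 of 16 were higher, beside 8.7% of all genes, and the others did not pass. These were S100g (1.31), Atp2b4 (1.92), Vdr (1.08), the calcium-sensing receptor Casr (2.34), the parathyroid hormone receptor Pth1r (1.95) and Klotho, Kl (0.84). Only the principal cell side of this comparison had a ceiling on Slc12a1. The 6 thick limb markers summed to 320 and 321 CPM in losartan and 384 and 297 CPM in untreated principal cell nuclei, below the connecting tubule values given above. The part of thick limb RNA in these calls, and in that of Egf, was not tested. Trpv6, the close relative of Trpv5, was near the detection limit with 1.49 to 9.25 CPM and did not pass in either comparison.

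Against nuclei gated as principal cells, some of which held connecting tubule markers, connecting tubule nuclei had less RNA for water channels and Sgk1. No difference passed the test for the sodium channel subunits Scnn1b and Scnn1g. Over 10985 genes, 956 were higher (8.7%) and 716 lower (6.52%) in connecting tubule nuclei, 15.2% in all. Among the 520 nuclei, 555 of 9341 genes were higher (5.94%) and 589 lower (6.31%), and 935 of these calls were shared. Principal cell nuclei were filtered in the same way there, which left 206 in untreated library 2, so both sides of the comparison changed. Without untreated library 2 the calls numbered 739 in place of 1672, and that library held 302 of the 454 principal cell nuclei. Scnn1b measured 354 to 787 CPM in principal cells and did not pass (log2 difference -0.11, SE 0.20, adjusted p = 0.822), and neither did Scnn1g (0.04, adjusted p = 0.955). Aqp4, a basolateral water channel, measured 14.9 and 12.3 CPM in losartan and 10.5 and 24.0 CPM in untreated connecting tubule nuclei, against 364 and 605 CPM in losartan and 110 and 378 CPM in untreated principal cell nuclei (-4.51, SE 0.29, adjusted p = 3.08e-08). Aqp3, the other basolateral channel, had levels between those of the 2 other gates. It measured 61.2 and 60.1 CPM in losartan and 23.4 and 34.7 CPM in untreated connecting tubule nuclei, against 98.5 to 171 CPM in principal cells (-1.83, SE 0.31, adjusted p = 0.00048) and 0.71 to 9.36 CPM in distal convoluted tubule nuclei (2.83, SE 0.39, adjusted p = 3.66e-05). The vasopressin receptor Avpr2 was likewise higher than in distal convoluted tubule (2.33, adjusted p = 0.000495) and lower than in principal cells (-1.67, adjusted p = 0.00234), and the second call was lost among the 520 nuclei (-0.85, adjusted p = 0.118). In all, 8 of 14 water and vasopressin genes were higher and 2 lower than in distal convoluted tubule, and 2 were higher and 6 lower than in principal cells. Of all genes tested, 11.1% were higher and 7.43% lower than in distal convoluted tubule. The connecting tubule rule left out nuclei with more than 1 Aqp2 UMI, and the principal cell gate asked for at least 4. For genes that vary with Aqp2, gate and segment therefore cannot be told apart in the comparison with principal cells. Another 74 and 70 losartan and 88 and 188 untreated nuclei met the rest of the rule but had more than 1 Aqp2 UMI. Sgk1, a kinase induced by aldosterone, measured 77.7 and 50.9 CPM in losartan and 79.4 and 70.7 CPM in untreated connecting tubule nuclei, against 238 to 319 CPM in principal cells (-2.09, SE 0.21, adjusted p = 3.69e-06).

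**Figure D2:**
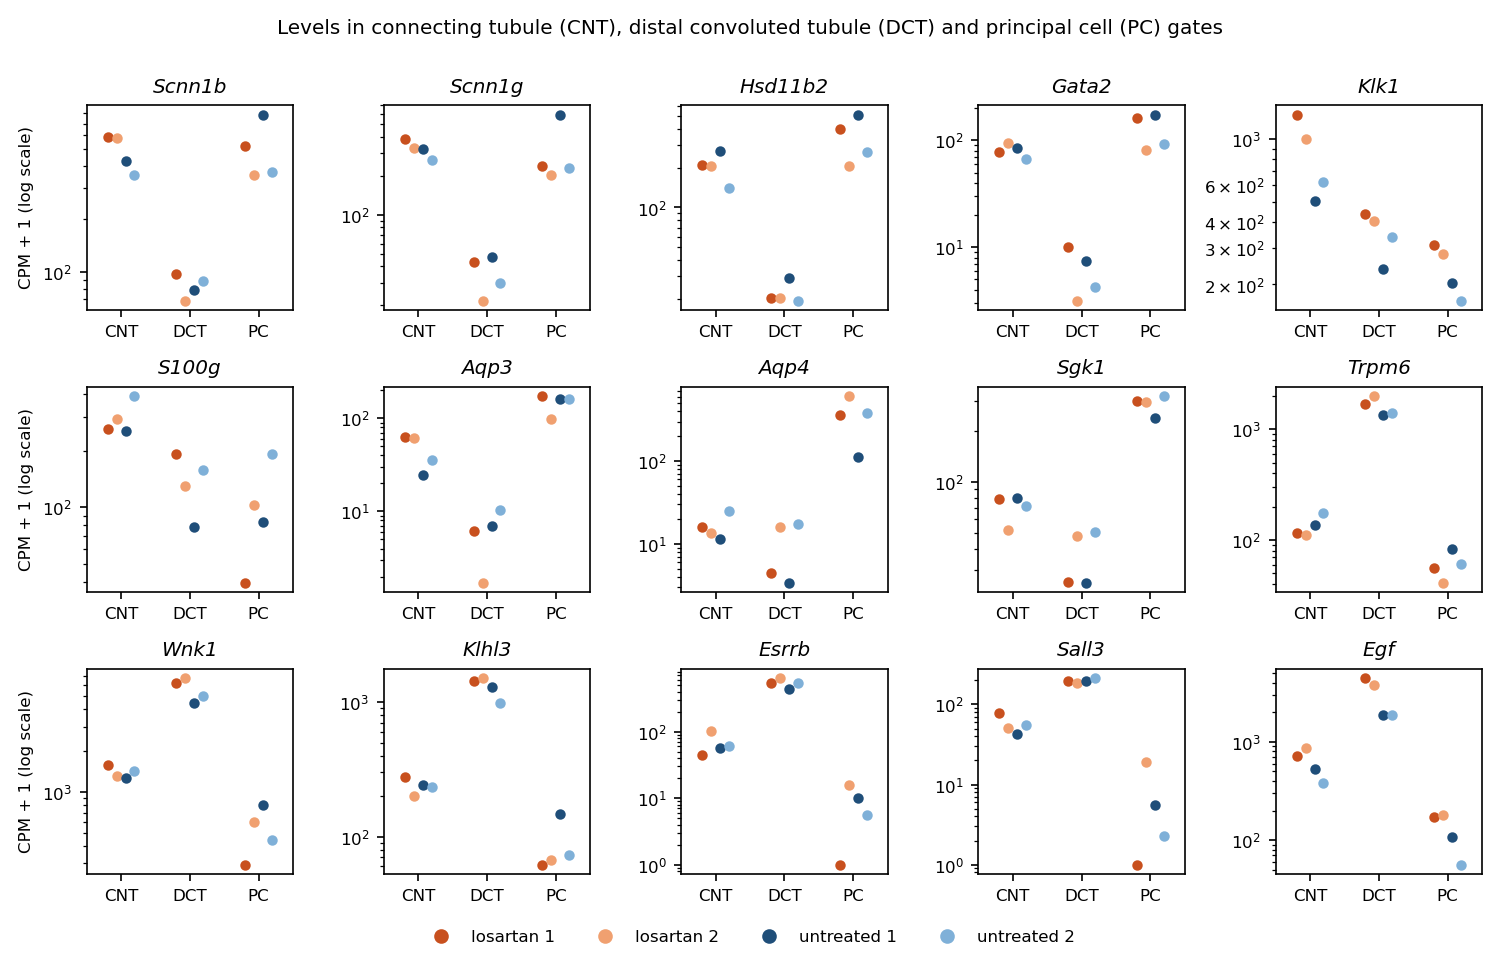
CPM plus 1 on a log axis for 15 genes in each of the 4 libraries, with connecting tubule nuclei left of distal convoluted tubule and principal cell nuclei. Trpm6, Wnk1, Klhl3, Esrrb, Sall3 and Egf are highest in distal convoluted tubule, Aqp3 and Aqp4 in principal cells, and Klk1 in connecting tubule nuclei.

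In the plot of levels by segment, the connecting tubule points of Klk1 lie above both neighbours, and those of Wnk1, Klhl3 and Aqp3 lie between them. Across all genes, 391 of 10985 were higher in connecting tubule than in both neighbours and 51 were lower than in both. Another 209 were higher than in distal convoluted tubule and lower than in principal cells, and 196 were the reverse. Among the 520 nuclei low in other markers the same 4 counts were 103, 29, 226 and 167 of 9341 genes.

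Several transcription factors also differed from both neighbours. Gata2, a zinc finger factor of the collecting system, measured 77.7 and 94.0 CPM in losartan and 84.1 and 65.9 CPM in untreated connecting tubule nuclei, against 2.13 to 9.08 CPM in distal convoluted tubule nuclei (log2 difference 3.81, SE 0.28, adjusted p = 1.83e-08). Against principal cells Gata2 was lower by 0.68 (adjusted p = 0.0463), which did not pass in the 520 nuclei (adjusted p = 0.282). Esrrb measured 43.3 and 100 CPM in losartan and 56.1 and 59.9 CPM in untreated connecting tubule nuclei, against 430 to 635 CPM in distal convoluted tubule (-3.19, SE 0.17, adjusted p = 3.54e-10) and 0 to 14.6 CPM in principal cells (3.31, SE 0.36, adjusted p = 6.29e-06). Sall3 showed the same order, at -1.96 and 3.74. Lhx1 was lower than in distal convoluted tubule by 3.41 and did not pass against principal cells (-0.13). Pax2 was higher than in distal convoluted tubule (0.94) and lower than in principal cells (-1.45). Elf5 had 1.54 to 3.50 CPM in connecting tubule nuclei and 22.9 to 157 CPM in principal cells. Of 29 factors tested, 7 were higher and 8 lower than in distal convoluted tubule, and 4 were higher and 11 lower than in principal cells. Over all genes these shares were 11.1% and 7.43%, and 8.7% and 6.52%. The potassium channel gene Kcnj1 (ROMK) was lower than in distal convoluted tubule (-0.96, SE 0.16, adjusted p = 0.000232) and higher than in principal cells (0.76, SE 0.19, adjusted p = 0.0113). Kcnma1 (the BK channel) was higher than in both in all gated nuclei (1.73 and 2.37). In the 520 nuclei Kcnma1 had 21 and 16 UMIs in losartan and 29 and 17 UMIs in untreated libraries. Within the gate it was lower in nuclei with Trpv5, as given below.

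The genes with the largest differences from the distal convoluted tubule included several that were higher still in principal cells. Gpc5, a glypican of the cell surface (chromosome 14, 115092215 to 116525179), measured 738 and 629 CPM in losartan and 582 and 304 CPM in untreated connecting tubule nuclei, against 9.36 to 32.6 CPM in distal convoluted tubule (4.49, SE 0.17, adjusted p = 1e-11) and 619 to 1006 CPM in principal cells (-0.81). Mgat4c, a glycosyltransferase gene, measured 314 and 282 CPM in losartan and 210 and 70.7 CPM in untreated connecting tubule nuclei (5.29 against distal convoluted tubule, -2.62 against principal cells). Col26a1, a collagen, differed by 5.53 and -1.68, the potassium channel gene Kcnh5 by 5.0 and -1.91, the kinesin gene Kif26b by 4.39 and -1.11, and the proteoglycan gene Spock3 by 4.13 and -1.45. Lmx1a, a homeobox factor, was the exception, with 16.4 and 43.2 CPM in losartan and 35.0 and 27.6 CPM in untreated connecting tubule nuclei (4.28). Its difference from principal cells was 0.87 and did not pass in all gated nuclei, but passed among the 520 (1.51, adjusted p = 0.0351). Gm13269 (4.39) is annotated antisense to Cacnb2, and the counting strand is not stated.

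Several genes of the distal convoluted tubule were nearly absent from the connecting tubule nuclei, and no fold is given for them. Gm2115 had no UMI in losartan and 1 UMI in each untreated library, against 114 and 133 CPM in losartan and 188 and 135 CPM in untreated distal convoluted tubule nuclei. Syt9 had 1 and 0 UMIs in losartan and 2 and 0 UMIs in untreated libraries, against 78.1 to 103 CPM in distal convoluted tubule nuclei. Adamtsl3, Lrrc52, Gm5860, Gm21847 and RP23-231J2.1 had at most 2 UMIs in any library. Fgf13, an intracellular FGF homologue, had enough counts to give a log2 difference of -4.89 (SE 0.36), with 3.08 to 14.4 CPM in connecting tubule nuclei and 164 to 434 CPM in distal convoluted tubule nuclei.

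Among the genes with the largest differences from principal cells, Malrd1 measured 480 and 267 CPM in losartan and 237 and 189 CPM in untreated connecting tubule nuclei, against 7.29 to 18.3 CPM in principal cells (4.49, SE 0.24, adjusted p = 1.63e-09; 4.23 in the 520 nuclei). Fam19a1 differed by 4.97, and by 2.97 in the 520 nuclei. F13a1, Cd44, Hepacam2, Ctnna3 and Atp8b4 were also named and had too few counts to test in the 520 nuclei. All 38 F13a1 UMIs of losartan library 2 came from 1 nucleus, as did 284 of the 315 Cd44 UMIs of untreated library 2, without which library Cd44 did not pass (adjusted p = 0.0613). Lower genes included Ros1, a receptor tyrosine kinase, Elf5, the Wnt ligand gene Wnt9b, Ptprh and Sbspon, which were tested through their level in principal cells and had at most 7 UMIs in the gate of any library, so no fold is given. Dab1, an adaptor of reelin signalling, was lower by 3.50 on the log2 scale, with 16.4 and 44.7 CPM in losartan and 37.4 and 33.5 CPM in untreated connecting tubule nuclei, against 226 and 255 CPM in losartan and 503 and 412 CPM in untreated principal cells.

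The gated nuclei were also compared by genes of the rule, between those with and those without a UMI. Nuclei without Trpv5 entered through Calb1 or Egfem1 and were shallower, so the purity of the gate, depth and variation among connecting tubule cells cannot be told apart in this comparison. Nuclei with a Trpv5 UMI numbered 71 and 65 in losartan and 75 and 50 in untreated libraries, and nuclei without one numbered 102 and 105 in losartan and 144 and 138 in untreated libraries. Their median depth was 3471 to 4624.5 UMIs with Trpv5 and 3086.5 to 3452.5 UMIs without. Of 7516 genes, 146 were higher (1.94%) and 411 lower (5.47%) in nuclei with Trpv5, 7.41% in all. The 557 calls became 260 without untreated library 1, 199 without untreated library 2 and 327 without losartan library 2. Kl measured 653 and 665 scaled CPM in losartan and 689 and 677 scaled CPM in untreated nuclei with Trpv5, against 346 and 289 scaled CPM in losartan and 409 and 316 scaled CPM in untreated nuclei without (log2 difference 0.99, SE 0.14, adjusted p = 0.00121). Klhl3 (1.16, adjusted p = 0.00111), Scnn1b (1.02, adjusted p = 0.00596), Atp2b4 (1.06), Trpm6 (0.93), Scnn1g (0.88), Klk1 (0.84), Nr3c2 (0.70) and Vdr (0.66) were higher as well. Of 12 calcium genes 4 were higher and the others did not pass, and of 23 sodium genes 6 were higher and 2 lower.

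All 6 genes of the macrophage and dendritic marker list were lower in the nuclei with Trpv5, with a median log2 difference of -2.77 beside 0.02 over all genes. Cd74, the invariant chain of MHC class II, measured 44.0 and 53.4 scaled CPM in losartan and 61.2 and 108 scaled CPM in untreated nuclei with Trpv5, against 156 and 131 scaled CPM in losartan and 208 and 916 scaled CPM in untreated nuclei without (-2.15, adjusted p = 0.000533). Of 10 MHC and antigen presentation genes 6 were lower, where 5.47% of all genes were. The named lower genes were Gm4951 (-4.35) and the genes P2ry6 (-4.12), Pik3ap1 (-4.02), Stab1 (-3.80) and Lpcat2 (-3.78), which are known from macrophages. Among the 520 nuclei P2ry6, Pik3ap1, Stab1 and Lpcat2 had at most 6 UMIs in any library and Gm4951 at most 7, so most of their UMIs came from the nuclei with markers of other cells. Egf was lower by 1.43 (adjusted p = 0.0012) and Kcnma1 by 2.53. The named higher genes were Spag6l (1.76), Aff2 (1.58), Gm12474 (1.41), Gm26685 (1.29) and Cwh43 (1.20), of which the last 4 did not pass in the 520 nuclei. In those 520 nuclei, 32 genes were higher and 96 lower, and 100 of these calls were shared.

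Nuclei with the 1 Aqp2 UMI that the rule allows (51 and 59 in losartan, 43 and 87 in untreated libraries) differed less, with 39 of 8151 genes higher (0.478%) and 55 lower (0.675%), 1.15% in all. The 94 calls became 38 without untreated library 2 and 29 without losartan library 2. Mgat4c measured 548 and 686 scaled CPM in losartan and 338 and 143 scaled CPM in untreated nuclei with Aqp2, against 243 and 104 scaled CPM in losartan and 185 and 18.2 scaled CPM in untreated nuclei without (1.70, SE 0.24, adjusted p = 0.000515). Kcnh5 (1.78), the prostaglandin F receptor Ptgfr (1.62), Ccdc112 (1.47) and Col26a1 (1.23) were the other named higher genes, and Ccdc112 did not pass in the 520 nuclei or whichever library was left out. Scnn1b was higher by 0.59 (adjusted p = 0.0163), Hsd11b2 by 0.78 and Atp2b2 by 0.82. Egf was lower by 1.09 (SE 0.15, adjusted p = 0.000515). The named lower genes were Cd44 (-3.50, with 284 of 315 UMIs of untreated library 2 in the 1 nucleus given above, and 0 and 1 UMIs in losartan and 4 and 3 UMIs in untreated nuclei of the 520), Gm14002 (-2.99, annotated antisense to Slc12a1), Tmem207 (-2.51), Filip1 (-2.33) and Ctnna3 (-2.20), the last of which did not pass without untreated library 2 (-0.75, adjusted p = 0.516). For the 1 Slc12a3 UMI that the rule allows, edgeR passed 0 of 7907 genes (0%), although 485 had a p under 0.05 before adjustment. It called 13 among nuclei of 2000 to 8000 UMIs and 6 without untreated library 1.

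**Figure D3:**
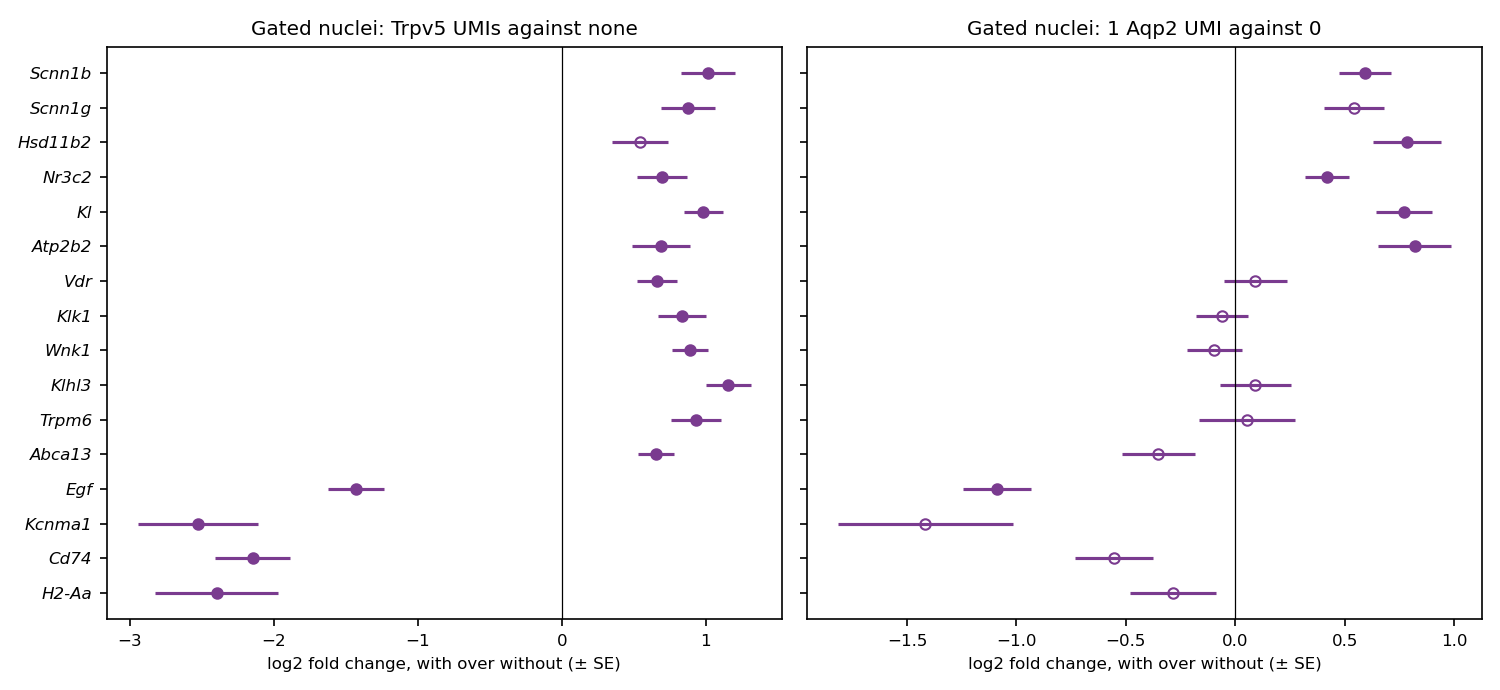
Log2 difference with its SE (bars) for 16 genes inside the gate, for nuclei with over nuclei without a Trpv5 UMI (left) and an Aqp2 UMI (right). Filled points passed edgeR's test. Kl is higher with Trpv5 (0.99) and Egf is lower in both splits (-1.43 and -1.09).

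The plot of both splits places Kl, Scnn1b and Atp2b2 to the right of 0 in each, and Klhl3 and Trpm6 to the right with Trpv5 and near 0 with Aqp2.

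Losartan changed few genes of the connecting tubule nuclei past the threshold. Of 9436 genes, 2 passed edgeR's test at an adjusted p of 0.05, both lower (0.0212%) and none higher (0%). Before adjustment, 361 genes had a p under 0.05 and were higher (3.83%), and 605 were lower (6.41%). DESeq2 called 18. On simulated counts of this size, edgeR recovered 32% of the genes given a log2 change of 1 and 76% of those given 2. The 2 groups of libraries were fully apart for 41.3% of all genes (20.6% higher, 20.7% lower in losartan). Among the 520 nuclei low in other markers, 9 of 7528 genes passed (0.12%), 4 higher (0.0531%) and 5 lower (0.0664%). The count moved when 1 library was left out. It was 20 with losartan library 1 left out and 48 with losartan library 2 left out, 848 when untreated library 1 was dropped and 137 when untreated library 2 was dropped.

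Both called genes were low in both losartan libraries. Gm43291 (chromosome 6, 70719074 to 70740554) is a lincRNA, named Gm30211 in GENCODE M21, that overlaps the immunoglobulin kappa joining segments and Igkc on the same strand. It measured 38.8 and 72.4 CPM in losartan and 472 and 809 CPM in untreated connecting tubule nuclei (log2 change -3.47, SE 0.34, adjusted p = 0.0303). In untreated library 2, 299 of its 675 UMIs came from 1 nucleus, and without the richest nucleus of each library it measured 36.0 and 65.0 CPM in losartan and 374 and 452 CPM in untreated nuclei. The 520 nuclei gave 31.8 and 56.7 CPM in losartan and 259 and 337 CPM in untreated libraries (-2.70, adjusted p = 0.00146). It was not particular to the gate, with 49.0 and 77.7 CPM in losartan and 251 and 1549 CPM in untreated nuclei outside it.

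Sntg1, a syntrophin of the dystrophin complex (chromosome 1, 8361475 to 9299878), measured 1.49 and 6.17 CPM in losartan and 143 and 80.3 CPM in untreated connecting tubule nuclei, from 1 and 4 UMIs in losartan and 122 and 67 UMIs in untreated libraries. The fitted log2 change of -4.76 (SE 0.54, adjusted p = 0.0424) rests on those few losartan counts. Of the untreated UMIs, 42 and 36 came from 1 nucleus in each library, and without the richest nuclei the levels were 0 and 4.65 CPM in losartan and 93.7 and 37.3 CPM in untreated libraries. It passed in the 520 nuclei (-4.40, adjusted p = 0.00146). Both genes passed whichever library was left out. Neither passed with no filter on low counts (adjusted p = 0.786 for both) or without the nuclei richest in proximal tubule UMIs (adjusted p = 0.0918 for Gm43291 and 0.0584 for Sntg1).

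In the 520 nuclei, Nlgn1 and Kcnip4, both best known from neurons, were lower too. Nlgn1 measured 8.49 and 18.9 CPM in losartan and 95.3 and 93.7 CPM in untreated nuclei (-2.73, adjusted p = 0.0149), and Kcnip4 measured 8.49 and 20.8 CPM in losartan and 95.3 and 118 CPM in untreated nuclei (-2.79, adjusted p = 0.0149). Ltc4s, leukotriene C4 synthase, was lower by 1.98 (adjusted p = 0.0149). The higher calls were Kap (1.58, adjusted p = 0.00146), Acsm2 (1.58, adjusted p = 0.00621), Slc22a30 (1.76, adjusted p = 0.0312) and Malrd1 (1.78, adjusted p = 0.0312). Kap, Acsm2 and Slc22a30 are proximal tubule genes. Kap measured 2248 and 1993 CPM in losartan and 782 and 643 CPM in untreated nuclei of the 520, beside 2822 and 2728 CPM in losartan and 1418 and 1459 CPM in untreated proximal tubule nuclei. The summed level of the 10-gene proximal tubule list was 4217 and 4259 CPM in losartan and 2927 and 1694 CPM in untreated connecting tubule nuclei. Its part in these results was not tested.

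The other genes named for their small p did not pass edgeR's test in all gated nuclei, although their groups did not overlap. Angpt1, a ligand of the endothelial receptor Tie2, measured 548 and 402 CPM in losartan and 217 and 171 CPM in untreated nuclei (1.34, adjusted p = 0.129). Spock3 measured 95.6 and 69.4 CPM in losartan and 21.0 and 9.58 CPM in untreated nuclei (2.47, adjusted p = 0.129). Tmem52b measured 1011 and 828 CPM in losartan and 475 and 470 CPM in untreated nuclei (1.01, adjusted p = 0.153). Kap (1.32, adjusted p = 0.129) and Slc22a30 (1.61, adjusted p = 0.146) were named with them. All 5 were higher in both losartan libraries, and Angpt1, Spock3 and Tmem52b did not pass in the 520 nuclei either. DESeq2 called each of the 5, among them Angpt1 with an adjusted p of 0.00353. The scaffold gene Sash1 measured 70.2 and 75.5 CPM in losartan and 190 and 208 CPM in untreated nuclei (-1.40, adjusted p = 0.12). Il34, a ligand of the macrophage receptor Csf1r, measured 28.4 and 35.5 CPM in losartan and 103 and 117 CPM in untreated nuclei (-1.73, adjusted p = 0.129). Jchain, the joining chain of IgA and IgM, had 2 and 9 UMIs in losartan and 71 and 79 UMIs in untreated nuclei. Sash1 and Jchain passed with DESeq2 and Il34 did not.

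**Figure D4:**
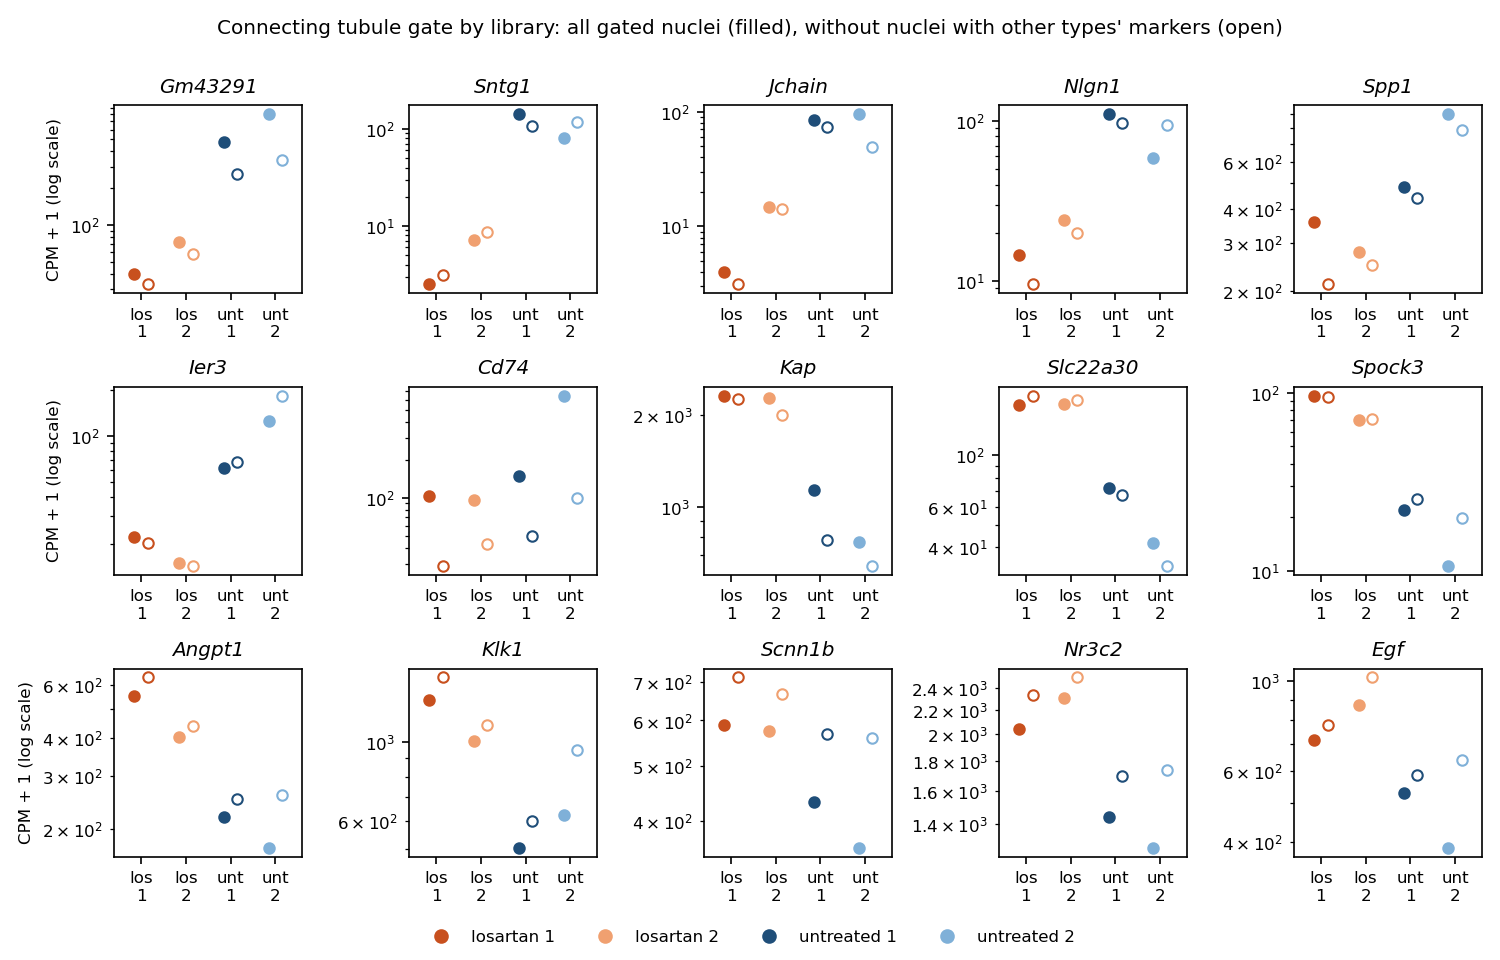
CPM plus 1 in losartan 1 and 2 and untreated 1 and 2 for 15 genes of the connecting tubule nuclei, on log axes with their own range, with filled points for all gated nuclei and open points for the 520 nuclei low in markers of other cell types. Gm43291 and Sntg1 were called in both sets. For Cd74, untreated library 2 stands at 644 CPM in all gated nuclei and at 99.1 CPM in the 520.

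The plot of levels by library sets both groups of nuclei side by side. Filled and open points lie close for Slc22a30 and apart for Cd74 in untreated library 2. Cd74 is among the macrophage markers by which nuclei were left out, so its fall there was fixed by that choice. For Spock3 the open point of untreated library 2 (18.7 CPM) lies above the filled one.

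No gene of the sodium, calcium or magnesium lists passed edgeR's test for losartan. Klk1 measured 1313 and 1003 CPM in losartan and 502 and 622 CPM in untreated nuclei (1.10, SE 0.20, adjusted p = 0.157), and in the 520 nuclei 1520 and 1116 CPM in losartan and 600 and 951 CPM in untreated libraries (0.79, adjusted p = 0.326). Klk1 did pass with DESeq2 in all gated nuclei (adjusted p = 0.00881). The order of the groups was not particular to the gate. A Klk1 UMI was found in 65.4% and 63.0% of losartan and 43.1% and 61.3% of untreated distal convoluted tubule nuclei. Proximal tubule nuclei showed 50.3% and 44.4% in losartan and 25.2% and 41.1% in untreated libraries. Nr3c2 measured 2038 and 2303 CPM in losartan and 1440 and 1273 CPM in untreated nuclei (0.73, adjusted p = 0.21). Scnn1b was at 0.62 (adjusted p = 0.274) in all gated nuclei and at 0.31 (adjusted p = 0.694) in the 520, while Hsd11b2 (0.08) and Sgk1 (-0.17) overlapped between groups. Of 23 sodium and aldosterone genes, 3 had a p under 0.05 before adjustment, and 11 were higher without overlap, where 20.6% of all genes were so. In the 520 nuclei 6 were higher and 3 lower without overlap, where 18.2% of all genes were higher and 18.9% lower, and the median log2 change was -0.04, against 0.16 in all gated nuclei. The 12 calcium genes had a median of -0.11 and the 12 magnesium genes one of -0.10, with Egf at 0.85 (adjusted p = 0.223). Agtr1a, the receptor that losartan blocks, had 18 and 11 UMIs in losartan and 34 and 49 UMIs in untreated nuclei (-1.10, adjusted p = 0.369).

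Genes of tubule injury and of antigen presentation had mostly negative log2 changes in losartan nuclei, and no single member passed the test. All 15 injury genes tested had a log2 change below 0, with a median of -1.31 beside -0.002 over all genes. Of these, 12 did not overlap between groups, where 20.7% of all genes were lower without overlap, and 12 had an unadjusted p under 0.05. Dcdc2a measured 25.4 and 29.3 CPM in losartan and 91.1 and 85.0 CPM in untreated nuclei (-1.63, adjusted p = 0.146). Spp1, osteopontin, measured 359 and 277 CPM in losartan and 484 and 902 CPM in untreated nuclei (-1.07, adjusted p = 0.274), and 109 of the 240 Spp1 UMIs of losartan library 1 came from 1 nucleus. In the 520 nuclei Spp1 measured 210 and 248 CPM in losartan and 441 and 785 CPM in untreated libraries (-1.39, adjusted p = 0.0791). There 9 injury genes could be tested, all below 0 with a median of -1.27, and 8 did not overlap, beside 18.9% of all genes lower without overlap. The summed level of the 6-gene injured tubule marker list was 396 and 339 CPM in losartan and 637 and 1225 CPM in untreated nuclei. This order was not particular to the gate. In distal convoluted tubule nuclei the list summed to 172 and 214 CPM in losartan and 686 and 972 CPM in untreated libraries. Proximal tubule nuclei held 167 and 177 CPM in losartan and 436 and 580 CPM in untreated libraries. Principal cell nuclei held 199 and 321 CPM in losartan and 334 and 1471 CPM in untreated libraries.

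Of 13 MHC and presentation genes, 12 were lower without overlap, with a median of -1.30, where 20.7% of all genes were lower without overlap. Cd74 measured 103 and 94.0 CPM in losartan and 147 and 644 CPM in untreated nuclei (-1.95, adjusted p = 0.284), and in the 520 nuclei 27.6 and 41.6 CPM in losartan and 48.5 and 99.1 CPM in untreated libraries (-1.0, adjusted p = 0.597). The macrophage list summed to 245 and 313 CPM in losartan and 387 and 1472 CPM in untreated nuclei, with none of its 6 genes at 0. Among the 520 nuclei 7 of 9 presentation genes were lower without overlap, with a median of -0.72, where 18.9% of all genes were lower without overlap. Early response genes had a median of -0.73 over 11 genes, with 5 lower without overlap, beside 20.7% of all genes in all gated nuclei. Ier3 measured 20.9 and 13.9 CPM in losartan and 60.7 and 123 CPM in untreated nuclei (-2.34, adjusted p = 0.173). Oxidative phosphorylation genes had a median of -0.22 over 20 genes, and -0.11 in the 520 nuclei.

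**Figure D5:**
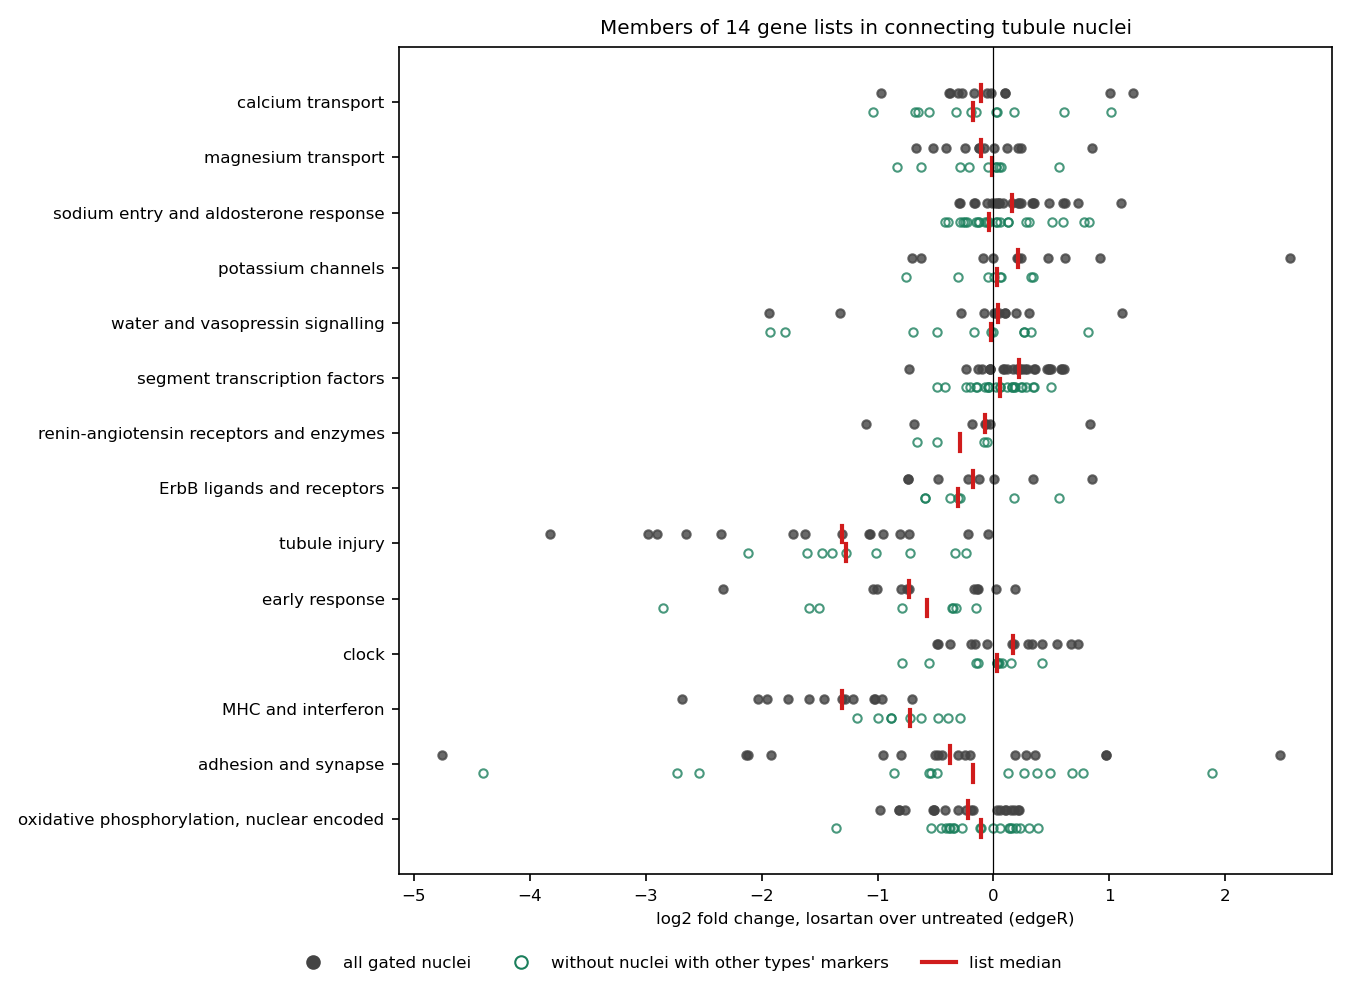
Log2 change with losartan of each tested member of 14 gene lists in connecting tubule nuclei, with dark points for all gated nuclei, open green points for the 520 low in markers of other cell types, and a red line at each median. The injury list lies below 0 in both sets (medians -1.31 and -1.27), and the sodium and aldosterone list lies around 0 (0.16 and -0.04).

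In the plot of the lists, the injury points lie below 0 in both sets, and the presentation list moves toward 0 in the 520 nuclei. Those nuclei were chosen in part for few macrophage and dendritic markers, Cd74 among them, so that move is no separate result.

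The losartan change in connecting tubule nuclei was set against that in other nuclei by an interaction. Against distal convoluted tubule nuclei 1 of 11408 genes passed (0.00877%), against principal cells 3 of 9876 (0.0304%; 0.0203% more positive and 0.0101% more negative in the connecting tubule), and against all other nuclei 55 of 17502 (0.314%), of which 34 had a more positive and 21 a more negative losartan change in the connecting tubule. These 3 counts were 392, 47 and 250 when untreated library 1 was dropped, 72, 113 and 78 when untreated library 2 was dropped, 0, 29 and 32 with losartan library 1 left out, and 4, 28 and 141 with losartan library 2 left out. Angpt1 measured 548 and 402 CPM in losartan and 217 and 171 CPM in untreated connecting tubule nuclei, and 204 and 135 CPM in losartan and 375 and 223 CPM in untreated principal cells (difference of log2 changes 2.07, adjusted p = 0.0115). St6gal1, a sialyltransferase, measured 224 and 297 CPM in losartan and 181 and 162 CPM in untreated connecting tubule nuclei, and 38.8 and 49.0 CPM in losartan and 66.1 and 81.7 CPM in untreated nuclei outside the gate (1.30, adjusted p = 0.0216). In both genes the libraries of the 2 groups were ordered oppositely in the connecting tubule and in the nuclei it was set against. These adjusted p-values are edgeR's, from a model over both classes. The nuclei outside the gate differed in make-up between groups, with the proximal tubule gate at 46.6% and 36.7% of all nuclei in losartan and 25% and 18.4% in untreated libraries, so a change in their cells and a change in their mixture cannot be told apart.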

How the data were processed

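Single-nucleus libraries from 2 losartan-treated and 2 untreated kidney samples were grouped by GEO's treatment label. The deposited matrices hold raw UMI counts per gene and barcode, made with Cell Ranger 5.0.0 per the file headers. The submitters' processing notes name mm10 and Bowtie 0.12.2 with no role, and the strand used for counting is not stated, so genes that overlap others are uncertain. Of 27998 gene IDs, 27645 matched GENCODE M21 (GRCm38), which gave coordinates. Barcodes above 15000 UMIs or 10% mitochondrial UMIs were dropped, leaving 37959. Doublets were scored with Scrublet in scanpy 1.11.5 and kept, and leaving out the marked ones was an alternative.

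Counts were summed per library and class and tested with edgeR 4.0.16 (R 4.3.3; quasi-likelihood, TMM, filterByExpr), with Benjamini-Hochberg adjustment over all genes tested and 0.05 as threshold. Class contrasts and splits carried the library as a block. Levels are CPM of the class total, and scaled CPM use TMM sizes. DESeq2 1.42.0, other scalings and filters, thinning and leaving out libraries were alternatives. The test was checked on simulated counts of 9448 genes, 200 of them changed; 10% of its calls there were unchanged genes. Genes were named by size of log2 difference among calls with 1 sign in all 4 libraries and at least 20 CPM in the higher class, or, for losartan and interactions, by smallest p. A few genes that these rules or lists hold are not reported here. Members and lists were chosen with earlier results of these data known. No sequence is printed, since no result turns on one.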

Additional observations from a re-analysis of the deposited data

Results flagged for a closer look

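These genes are listed because the losartan change in connecting tubule nuclei differed from that in other nuclei in edgeR's interaction test. Each value is a difference of log2 changes, and a positive one means a higher losartan-to-untreated ratio in the connecting tubule.

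Against distal convoluted tubule nuclei, Gramd1b, a sterol transfer protein, differed by -1.51 (adjusted p = 0.0411). It measured 175 and 247 CPM in losartan and 749 and 339 CPM in untreated connecting tubule nuclei, and 131 and 165 CPM in losartan and 182 and 82.8 CPM in untreated distal convoluted tubule nuclei. In untreated library 1, 337 of its 641 UMIs came from 1 nucleus. It did not pass without losartan library 1 (adjusted p = 0.417) or losartan library 2 (adjusted p = 0.0716), and it passed in the 520 nuclei low in other markers (-1.49).

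Against principal cells, Angpt1 differed by 2.07, Pappa, a protease that frees insulin-like growth factors, by 2.02 (adjusted p = 0.0115 for both) and Csmd1 by -2.30 (adjusted p = 0.0279). Pappa measured 133 and 173 CPM in losartan and 160 and 137 CPM in untreated connecting tubule nuclei, and 249 and 295 CPM in losartan and 1039 and 1096 CPM in untreated principal cells. Its connecting tubule groups overlapped and its principal cell groups did not. Csmd1 measured 131 and 29.3 CPM in losartan and 267 and 325 CPM in untreated connecting tubule nuclei, with 47 of 88 UMIs of losartan library 1 in 1 nucleus, and it did not pass without that library (adjusted p = 0.34).

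The nuclei outside the gate differed in make-up between groups (proximal tubule gate 46.6% and 36.7% in losartan, 25% and 18.4% in untreated libraries), which cannot be told apart from a change within their cells. Against them, the 5 positive differences of smallest p were Ephb1, Mgat4c, Adgrg3, Fgf12 and St6gal1. Ephb1 (5.19) rests on 12 and 9 UMIs in losartan and 1 and 0 UMIs in untreated nuclei, so its size depends on the prior count, and it did not pass in the 520 nuclei (adjusted p = 0.201) or without losartan library 1 (adjusted p = 0.0763). Mgat4c differed by 1.88, with 314 and 282 CPM in losartan and 210 and 70.7 CPM in untreated connecting tubule nuclei, and 38.8 and 31.0 CPM in losartan and 53.5 and 64.3 CPM in untreated nuclei outside. Adgrg3, an adhesion receptor, differed by 1.44, with 179 and 197 CPM in losartan and 152 and 115 CPM in untreated connecting tubule nuclei. Fgf12 differed by 1.37, and did not pass without losartan library 2 (adjusted p = 0.0682). St6gal1 differed by 1.30.

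The 5 negative ones were Ier3, Atp11a, Gramd1b, Bmp6 and Sash1. Ier3 differed by -1.97 (adjusted p = 0.0299) and did not pass without losartan library 2 (adjusted p = 0.0848) or untreated library 2 (adjusted p = 0.0772). Atp11a, a lipid flippase, differed by -1.33, with 158 and 143 CPM in losartan and 234 and 162 CPM in untreated connecting tubule nuclei, and 946 and 664 CPM in losartan and 495 and 359 CPM in untreated nuclei outside. Gramd1b differed by -1.31, and by -0.82 without untreated library 1 (adjusted p = 0.0514). Bmp6, a bone morphogenetic protein, differed by -1.30, with 46.3 and 53.9 CPM in losartan and 139 and 137 CPM in untreated connecting tubule nuclei, and 258 and 379 CPM in losartan and 352 and 373 CPM in untreated nuclei outside. Sash1 differed by -1.20, and did not pass without losartan library 1 (adjusted p = 0.0786). All others in these paragraphs had an adjusted p of 0.0216.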

How the results depend on the processing

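Of 736 alternatives over 92 gene comparisons, 579 kept their side of the threshold, 106 came to pass it, 51 no longer passed and none changed direction. The log2 change of the connecting tubule share was -0.30 and turned to 0.135 among nuclei outside the proximal tubule gate and to 0.0661 in the 520 nuclei low in other markers. It lay between -0.43 and -0.04 under the other settings. The 2 losartan calls became 4 under the stricter gate, 0 with no filter, 18 with DESeq2, 9 without nuclei holding intercalated or thick limb markers, 1 without the nuclei richest in proximal tubule UMIs, and 9 in the 520 nuclei. Leaving out 1 library gave 20 (losartan 1), 48 (losartan 2), 137 (untreated 2) and 848 calls (untreated 1), and 5 to 174 in the 520 nuclei. With 2 libraries a group, the deviations of same-numbered libraries give a single correlation, 0.0407, which does not show a pairing, and a replicate block gave 82 calls.

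Calls against distal convoluted tubule (2040) became 1145 under the stricter gate and 1337 to 1718 without 1 library, and those against principal cells (1672) became 1107 and 739 to 1437. Interaction calls without 1 library were 0 to 392 (distal convoluted tubule), 28 to 113 (principal cells) and 32 to 250 (all other nuclei), and 17, 12 and 97 in the 520 nuclei. Calls of the Slc12a3 split were 0 to 6 without 1 library and 13 among nuclei of 2000 to 8000 UMIs. The Aqp2 split gave 29 to 87 without 1 library and 54 in the 520 nuclei, and the Trpv5 split 199 to 617 and 128. The causes were not tested. Depth in the gate limits genes with few UMIs, which could not be tested.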

Other observations

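Other gene lists add to the picture of the connecting tubule nuclei. Of 21 adhesion and synapse genes, 9 were higher and 4 lower than in distal convoluted tubule nuclei, and 8 were higher and 1 lower than in principal cells. Over all genes, 11.1% were higher and 7.43% lower than in distal convoluted tubule, and 8.7% and 6.52% than in principal cells. In the 520 nuclei low in markers of other cells, these counts were 6 and 4, and 4 and 2, of 19 genes, where 8.49% and 6.65%, and 5.94% and 6.31%, of all genes were called. Of 18 injury genes, 7 were higher and 1 lower than in distal convoluted tubule, and 5 were higher and 6 lower than in principal cells. Among ErbB genes, the ligand Btc was lower than in principal cells (log2 difference -3.15) and higher than in distal convoluted tubule (1.07, adjusted p = 0.0315), and Egfr was higher than in distal convoluted tubule (0.62) and lower than in principal cells (-1.12). Apobec3, a cytidine deaminase gene of the interferon list, measured 43.3 and 69.4 CPM in losartan and 104 and 123 CPM in untreated connecting tubule nuclei, against 12.5 to 24.2 CPM in distal convoluted tubule nuclei (2.13, adjusted p = 4.49e-06) and 259 to 363 CPM in principal cells.

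With losartan, the 14 clock genes had a median log2 change of 0.17, with 6 higher and 2 lower without overlap, where 20.6% of all genes were higher and 20.7% lower without overlap. The 11 potassium channel genes had a median of 0.21, and the 26 segment transcription factors one of 0.22 with 10 higher and 1 lower without overlap. In the 520 nuclei the median of 24 such factors was 0.06, with 7 higher and 4 lower, where 18.2% of all genes were higher and 18.9% lower without overlap. Creb5, a cyclic AMP response factor, measured 28.4 and 29.3 CPM in losartan and 77.1 and 153 CPM in untreated nuclei (-1.94, adjusted p = 0.176). The renin gene Ren1 had 29 and 2 UMIs in losartan and 17 and 6 UMIs in untreated connecting tubule nuclei, and Agt had 2 and 1 UMIs in losartan and 8 and 4 UMIs in untreated nuclei.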
